A study of Mus musculus with 8 samples.

Results

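The genes described here are 40 that carry new proteins into and out of the endoplasmic reticulum (ER): the signal recognition particle and its receptor, the Sec61 translocon, signal peptidase, oligosaccharyltransferase, the COPII vesicle coat and 1 cargo receptor complex. They were taken by gene symbol from a list of roles that was drawn up with earlier results of these data known, and all 40 were among the 16888 genes of the table. RNA-seq had been run on whole pancreas of mice with acute pancreatitis brought on by repeated cerulein injections. Cerulein is a cholecystokinin analogue that overstimulates the acinar cells of the exocrine pancreas. The design has 2 groups of 4 samples: a myeloid-specific Anxa1 knockout (CKO1 to CKO4) and Anxa1 flox/flox controls labelled WT (WT1 to WT4). Both groups received cerulein, so nothing here compares an inflamed with an uninjured pancreas. The sources used here do not state the Cre driver, the age of the mice or whether each sample was 1 animal, so p-values measure the spread between these samples. Levels are RPKM, a gene's reads divided by its length and by the reads of its library, given per library or as mean ± SD (n = 4 per group).

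Proteins destined for secretion are recognised by the signal recognition particle as they leave the ribosome, are handed to its receptor on the ER, and are threaded through the Sec61 channel. Signal peptidase removes the signal sequence, oligosaccharyltransferase attaches N-linked glycans, and COPII vesicles carry the folded product to the Golgi. Acinar cells make and export digestive enzymes in very large amounts and are known for their extensive rough ER.

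The libraries held 30469002 to 34359802 reads. A list of digestive enzymes and other acinar secretory products (called digestive enzymes from here on) made up 73.1% to 78.8% of summed RPKM in the CKO libraries and 73.7% to 74.6% in WT, with CKO1 (78.8%) and CKO4 (78.2%) the highest. All 16 acinar markers in the table were above 1 RPKM, their sum lying between 431284 and 492773 RPKM in CKO and between 423822 and 459268 RPKM in WT. Anxa1, the deleted gene, was at 4.84, 4.76, 5.21 and 7.13 RPKM across CKO1 to CKO4, against 8.44, 14.7, 7.05 and 9.74 RPKM across WT1 to WT4 (limma log2 change -0.73, SE 0.19, adjusted p = 0.0417). The Anxa1 call was lost without CKO1 (adjusted p = 0.0659), CKO2 (0.108), CKO3 (0.0636), WT1 (0.0759), WT2 (0.0826) or WT4 (0.0922), and in 5 of 8 other settings (0.0595 to 0.134), with a negative log2 change each time. Its deletion was confined by design to myeloid cells, and in this whole tissue the groups overlapped through CKO4 and WT3.

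The 40 genes summed to 1105 ± 64.6 RPKM in CKO and 1113 ± 28.6 RPKM in WT. This difference was smaller than the spread between libraries. Of the 39 members that were high enough to test, 1 rose (Dad1) and 1 fell (Srp19) in CKO, and 37 did not pass an adjusted p of 0.05. Those 2 are 5.13% of the tested members; limma-voom on recovered reads called 1 higher, again Dad1, and 0 lower, beside 1.18% and 3.8% of all genes. Over all 8513 tested genes 7.17% passed, 1.42% as higher and 5.74% as lower in CKO, so on this scaling the count of members was near the background. On other scalings more members passed, all as higher: 12.8% of the tested members with median centring, beside 3.58% of all genes, and 17.9% with a trend on gene length removed, beside 4.09%. The median log2 change of the tested members was 0.01, against -0.12 for all tested genes. Of the members 21 were positive and 18 negative, while over all tested genes 2522 were positive and 5991 negative. With median centring, which makes the library medians equal, the median of all genes was near 0 by construction (-0.02). Why it was -0.12 here was not tested. Changes, intervals and p-values below are taken against 0. At an unadjusted p under 0.05 (limma) there were 12 members, 30.8% of those tested, beside 27.3% of all tested genes. By direction 4 members were higher and 8 lower, beside 392 higher and 1931 lower of all 8513 tested genes.

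The median size of the change, leaving its sign aside, was 0.18 on the log2 scale for the members and 0.18 for all tested genes. Ratios of group means ran from 0.68 for Srp19 to 1.53 for Sec24d. For 32 of the 39 tested members (82.1%) the 95% interval of the change, on the scale of log2(RPKM + 1), lay within 1.5-fold in either direction, which held for 68.4% of all tested genes. The median standard error was 0.12 for members and 0.13 for all tested genes. The widest bounds among members were 0.574-fold for Srp19 and 1.80-fold for Sec24d. Members were read deeply, with a median level of 16.9 RPKM against 4.63 RPKM over all tested genes. Whole pancreas was measured, so fewer cells of a type and less RNA per cell cannot be told apart.

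**Figure D1:**
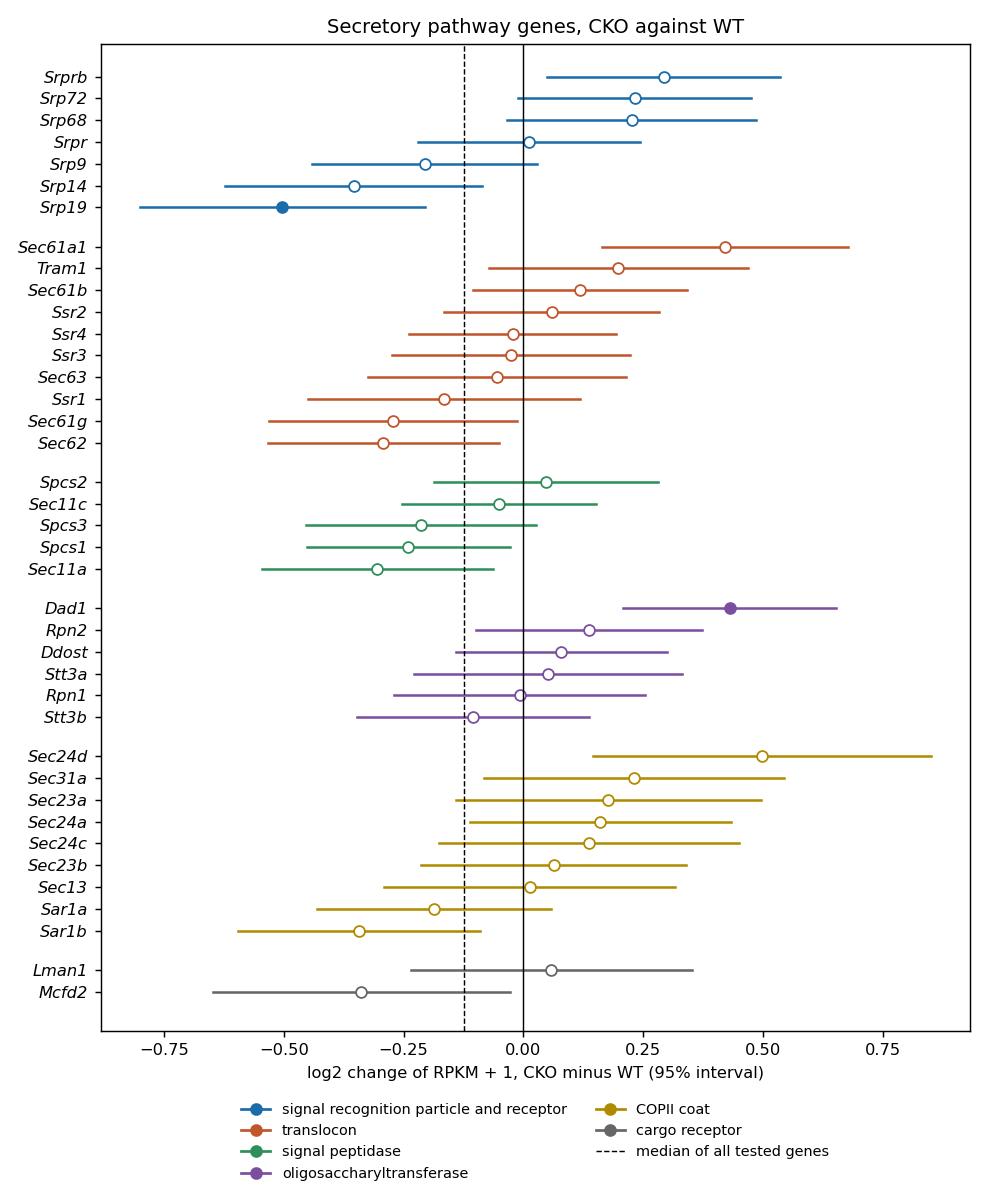
Log2 change of RPKM + 1 (CKO minus WT, horizontal axis) of the 39 tested genes, grouped and coloured by role, with 95% intervals from limma. Filled points are the 2 genes that passed an adjusted p of 0.05, Dad1 and Srp19; the dashed line is the median of all tested genes (-0.12).

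Among the members, 2 promoters held the unfolded protein response element TGACGTGG, a site bound by XBP1 and ATF6, and both belonged to COPII coat genes. RefSeq windows (GRCm38.p6, 250 bases before to 50 after the annotated start) were matched for 32 of the 40 members, and both strands were searched. They are shown because Sec24d had the largest positive change among the members and Sec23a held the other match. Each line gives 30 bases on the gene's strand, with the element in capitals.

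Sec24d: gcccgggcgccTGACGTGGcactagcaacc

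Sec23a: ctcctccccttTGACGTGGcagaggcggca

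The Sec24d stretch is chr3:123267459-123267488, plus strand, with the element 26 to 19 bases before the RefSeq start. The Sec23a stretch is chr12:59011993-59012022, minus strand, with the element 6 to 13 bases past the start base. In GENCODE M21 both elements lie in the first exon. Of all 27025 genes with a window 0.714% held this element, beside 6.25% of the 32 members. The 2 longer ER stress elements, CCAAT then 9 bases then CCACG, and ATTGG then 1 base then CCACG, were found in 0 of 32 member windows, and in 0.137% and 0.044% of genes. A match is a run of letters and shows no binding.

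Of the 7 tested targeting genes 1 fell and 0 rose, beside 5.74% and 1.42% of all 8513 tested genes. Srp19, which folds the particle's RNA for assembly, fell in CKO. Its levels were 8.65, 9.43, 11.1 and 8.51 RPKM across CKO1 to CKO4, against 12.4, 12.7, 12.6 and 17.7 RPKM across WT1 to WT4. Every CKO library lay below every WT library, and WT4 stood above the rest (log2 change -0.50, SE 0.14, adjusted p = 0.0466, limma). Srp19 lies on chromosome 18, 34330847 to 34336599, plus strand of mm10, and its level rests on 239 to 479 reads per library. Leaving out any 1 library other than CKO3 ended the call: the adjusted p was 0.0699 without CKO1, 0.103 without CKO2, 0.109 without CKO4, 0.0834 without WT1, 0.0758 without WT2, 0.0751 without WT3 and 0.0984 without WT4. The log2 change then lay between -0.55 and -0.39. It also missed the threshold when low genes were kept, with median centring, with totals without digestive enzymes, with limma-voom, with a replicate block and after removal of the trend on length (adjusted p of 0.0638 to 0.128).

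Srp14, 1 protein of the Alu-domain pair that slows the ribosome, was at 10.4, 10.7, 11.7 and 12.1 RPKM across CKO1 to CKO4, against 12.6, 13.2, 15.3 and 17.6 RPKM across WT1 to WT4. These groups did not overlap, but the change did not pass (log2 change -0.35, adjusted p = 0.0908). Its partner Srp9 was at 20.9 ± 1.398 and 24.3 ± 2.40 RPKM (adjusted p = 0.241). The larger subunits had values on the other side of 0. Srp72 was at 22.0 ± 1.75 RPKM in CKO and 18.6 ± 2.00 RPKM in WT (adjusted p = 0.205), and Srp68, which forms a pair with it, at 41.9 ± 4.74 and 35.6 ± 3.73 RPKM (adjusted p = 0.243).

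Srprb, the membrane-anchored GTPase of the receptor, was at 11.05, 12.8, 11.8 and 11.9 RPKM across CKO1 to CKO4, against 9.73, 9.48, 10.8 and 8.24 RPKM across WT1 to WT4. All CKO libraries were above all WT libraries, by a narrow margin between CKO1 and WT3 (log2 change 0.29, adjusted p = 0.117). Srprb shares 888 exon bases with a predicted gene on its own strand, so its reads may not all be its own. The most abundant targeting gene was Srpr, the receptor's other subunit. It was at 90.2, 113, 108 and 107 RPKM across CKO1 to CKO4, against 104, 100.1, 113 and 96.5 RPKM across WT1 to WT4, with a fold interval of 0.859 to 1.18. Its groups overlapped fully, with CKO1 the lowest library.

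Srp54a, the GTPase that binds the signal sequence, was too low to test. It was at 0.505, 2.00, 0.787 and 0.754 RPKM across CKO1 to CKO4, against 0.872, 0.741, 0.875 and 0.682 RPKM across WT1 to WT4. Its high library was CKO2. The mouse has near-identical copies of this gene on chromosome 12, so the split of reads among them is uncertain: Srp54b was at 1.62 RPKM in CKO1 and 0.229 to 0.995 RPKM in the other 7 libraries, and Srp54c at 2.12 to 3.16 RPKM.

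**Figure D2:**
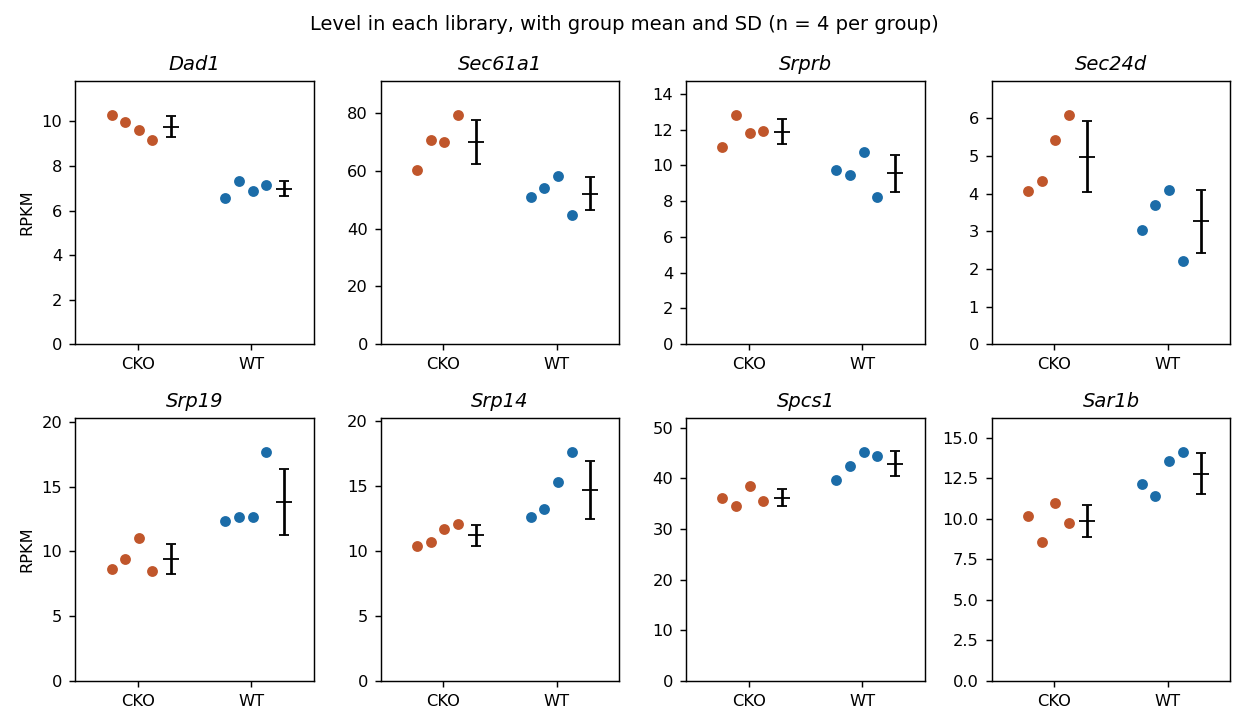
RPKM (vertical axes, starting at 0) of 8 genes in each library, CKO in orange and WT in blue, with group mean and SD in black (n = 4 per group). Dad1, Sec61a1 and Srprb are higher in every CKO library than in any WT library, Srp19, Srp14, Spcs1 and Sar1b are lower in every one, and the Sec24d groups touch (4.07 RPKM in CKO1 against 4.09 RPKM in WT3).

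Of the 10 translocon genes 0 passed. At an unadjusted p under 0.05 (limma) 1 was higher and 2 lower, beside 392 and 1931 of all 8513 tested genes. Sec61a1, the channel itself, came closest, at 60.3, 70.6, 69.9 and 79.2 RPKM across CKO1 to CKO4, against 50.9, 54.0, 58.4 and 44.8 RPKM across WT1 to WT4. Every CKO library was above every WT library (fold 1.35, log2 change 0.42, SE 0.12, adjusted p = 0.0515). Sec61a1 (chromosome 6, 88503579 to 88518905, minus strand) shares exon sequence with a predicted gene on the opposite strand, and the sources used here do not say whether counting used strand. It passed without CKO1 (adjusted p = 0.0318), with median centring (0.0184), with totals without digestive enzymes (0.0267) and after removal of the trend on length (0.0141). The highest value without any 1 library was 0.128.

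The 2 small tail-anchored subunits of the channel did not pass either. Sec61b was at 69.9 ± 4.74 RPKM in CKO and 64.4 ± 5.05 RPKM in WT (adjusted p = 0.482), and Sec61g at 24.3 ± 0.268 and 29.8 ± 4.52 RPKM (adjusted p = 0.166). Sec61g was even across the CKO libraries (24.1 to 24.7 RPKM), while WT ran from 23.8 to 34.6 RPKM. Whether the subunits' changes differ was not tested.

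Sec62, which assists transport of short precursors after translation, was at 14.1, 16.6, 15.03 and 14.8 RPKM across CKO1 to CKO4, against 18.5, 16.5, 18.6 and 21.4 RPKM across WT1 to WT4. The groups met at CKO2 and WT2 (log2 change -0.29, adjusted p = 0.114). Its partner Sec63, a J-domain protein, was at 10.05 ± 1.56 and 10.4 ± 0.666 RPKM (adjusted p = 0.807).

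Ssr4, a subunit of the translocon-associated TRAP complex, was the most abundant member, at 160, 172, 199.96 and 177 RPKM across CKO1 to CKO4, against 187, 183, 174 and 175 RPKM across WT1 to WT4. The groups overlapped, and the fold interval was 0.848 to 1.14. The other TRAP subunits overlapped between groups as well: Ssr2 was at 50.1 ± 3.80 and 48.0 ± 3.31 RPKM in CKO and WT, Ssr3 at 47.3 ± 4.38 and 48.2 ± 5.16 RPKM, and Ssr1 at 3.16 ± 0.387 and 3.69 ± 0.706 RPKM (adjusted p of 0.436 to 0.914). Tram1, which contacts the nascent chain beside the channel, was at 23.2 ± 2.79 and 20.1 ± 2.31 RPKM (adjusted p = 0.319), with CKO4 far below the other CKO libraries.

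Among 5 signal peptidase genes 0 passed. At an unadjusted p under 0.05 (limma) 0 were higher and 2 lower, beside 392 and 1931 of all 8513 tested genes. The summed level of the 5 genes did not overlap, at 96.3 to 104 RPKM in CKO against 111 to 119 RPKM in WT. The sums of the other 5 roles overlapped. For single genes, the groups did not overlap in 18.7% of all 8513 tested genes, 16.2% with CKO below WT. Spcs1, Sec11a and Sec11c measured 1006, 1153 and 1286 bases, but Spcs3 3466 and Spcs2 4524 bases. With a trend on gene length removed the log2 change was -0.013 for Spcs1, -0.085 for Sec11a and -0.11 for Spcs3. It was 0.16 for Sec11c and 0.13 for Spcs2. The part of gene length in the summed level was not tested. Spcs1, an accessory subunit and the most abundant of the 5, was at 36.1, 34.6, 38.5 and 35.5 RPKM across CKO1 to CKO4, against 39.6, 42.5, 45.2 and 44.4 RPKM across WT1 to WT4. The groups did not overlap (log2 change -0.24, adjusted p = 0.137). It shares exon sequence with Glt8d1 on the opposite strand.

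The 2 catalytic subunits are alternatives, Sec11a and Sec11c. Sec11a was at 15.1, 17.3, 15.5 and 14.3 RPKM across CKO1 to CKO4, against 21.2, 16.9, 19.4 and 20.3 RPKM across WT1 to WT4, overlapping through CKO2 and WT2 (log2 change -0.31, adjusted p = 0.102). Sec11c was at 28.3 ± 0.918 and 29.3 ± 0.687 RPKM (adjusted p = 0.756). Per length, Sec11c was above Sec11a in all 8 libraries, by 1.83 ± 0.113 times in CKO and 1.52 ± 0.191 times in WT, and these ratios overlapped. Sec11a shares exon sequence with Nmb on its own strand and with a predicted gene on the opposite one, so its reads may not all be its own. In all, 14 members share exon sequence with another gene in GENCODE M21, Sec62 and Srp9 among them. Spcs3, needed for activity, was at 14.4 ± 1.47 and 16.9 ± 1.07 RPKM (adjusted p = 0.235), and Spcs2 at 7.25 ± 0.508 and 6.98 ± 0.442 RPKM (adjusted p = 0.808).

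In the oligosaccharyltransferase group 1 of 6 genes rose and 0 fell, beside 1.42% and 5.74% of all 8513 tested genes. Dad1, a small core subunit named as a defender against cell death, was at 10.3, 9.99, 9.603 and 9.17 RPKM across CKO1 to CKO4, against 6.57, 7.33, 6.88 and 7.15 RPKM across WT1 to WT4. The 2 sets were well apart, with the lowest CKO library above the highest WT library (fold 1.398, log2 change 0.43, SE 0.10, adjusted p = 0.0296, limma). Dad1 lies on chromosome 14, 54235479 to 54254104, minus strand, shares no exon with another gene in GENCODE M21, and rests on 781 to 1312 reads per library. Its adjusted p was 0.0831 without CKO2, 0.1001 without WT1, 0.0637 without WT2, 0.0748 without WT3 and 0.0597 without WT4, while its log2 change stayed between 0.41 and 0.46 in all 8 omissions. In the other 8 settings tried with all libraries it passed, with an adjusted p of 0.0124 to 0.0488.

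The other 5 subunits did not pass. Ddost, the most abundant, was at 24.4, 25.4, 25.0 and 24.7 RPKM across CKO1 to CKO4, against 23.5, 26.1, 23.6 and 21.04 RPKM across WT1 to WT4, with the CKO values inside the WT range (adjusted p = 0.645). Rpn2 was at 22.8, 23.1, 23.2 and 26.8 RPKM across CKO1 to CKO4, against 22.3, 22.8, 23.0 and 18.8 RPKM across WT1 to WT4 (adjusted p = 0.435). Only CKO4 and WT4 stood away from a shared level. Rpn1 was at 16.8 ± 1.66 and 16.9 ± 2.19 RPKM in CKO and WT (adjusted p = 0.976). The alternative catalytic subunits were Stt3a, which works at the translocon, at 8.29 ± 0.595 and 8.03 ± 1.42 RPKM, and Stt3b, which also acts after translocation, at 13.7 ± 1.47 and 14.8 ± 0.962 RPKM (adjusted p = 0.826 and 0.570). Stt3b was above Stt3a per length in all 8 libraries, by 1.37 to 2.06 times.

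In the COPII coat 0 of 9 genes passed. At an unadjusted p under 0.05 (limma) 1 was higher and 1 lower, beside 392 and 1931 of all 8513 tested genes. Among the coat genes 7 log2 changes were positive and 2 negative, beside 2522 and 5991 over all tested genes. Sec24d, 1 of the cargo-selecting subunits, had the largest positive value, at 4.07, 4.35, 5.43 and 6.08 RPKM across CKO1 to CKO4, against 3.04, 3.71, 4.09 and 2.21 RPKM across WT1 to WT4. CKO1 and WT3 were level, and the rest of CKO was higher (fold 1.53, log2 change 0.50, SE 0.16, adjusted p = 0.0782). Sec24d passed with median centring (adjusted p = 0.0319) and after removal of the trend on length (0.0351).

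The related cargo subunits Sec24a and Sec24c were at 4.53 ± 0.624 and 7.20 ± 0.682 RPKM in CKO and at 3.94 ± 0.504 and 6.54 ± 1.399 RPKM in WT (adjusted p = 0.429 and 0.565). The level of Sec24c over that of Sec24d was 1.56, 1.68, 1.48 and 1.17 in CKO1 to CKO4 and 2.00, 1.98, 1.95 and 2.18 in WT1 to WT4. This ratio was lower in every CKO library than in any WT library. It was 1 of 7 paralog ratios formed, the other 6 overlapped between groups, and none was tested. A ratio within a library does not depend on how libraries are scaled.

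Sar1b, a GTPase that starts coat assembly, was at 10.2, 8.59, 10.97 and 9.75 RPKM across CKO1 to CKO4, against 12.1, 11.4, 13.5 and 14.1 RPKM across WT1 to WT4. Its groups did not overlap (log2 change -0.34, adjusted p = 0.0861). Its paralog Sar1a was at 19.5 ± 2.08 and 22.3 ± 1.83 RPKM (adjusted p = 0.305) and above Sar1b in all 8 libraries, by 1.63 to 2.39 times.

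Sec31a, of the outer coat, was at 22.0, 29.7, 32.0 and 26.2 RPKM across CKO1 to CKO4, against 24.9, 21.5, 27.5 and 19.0 RPKM across WT1 to WT4, with broad overlap (adjusted p = 0.318). Its partner Sec13 was at 12.1 RPKM in CKO1 and 20.2 RPKM in CKO4 but within 15.8 to 16.7 RPKM in WT (adjusted p = 0.963). Of the inner coat pair, Sec23b was at 10.9 ± 0.626 and 10.5 ± 1.82 RPKM and Sec23a at 1.44 ± 0.398 and 1.16 ± 0.350 RPKM (adjusted p = 0.785 and 0.456). Sec23b was the higher in all 8 libraries, by 5.15 to 11.7 times.

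Mcfd2 and Lman1 together carry selected glycoproteins out of the ER, and neither passed. Mcfd2, the calcium-binding partner, was at 58.8, 79.0, 84.3 and 93.2 RPKM across CKO1 to CKO4, against 93.0, 87.1, 105 and 110 RPKM across WT1 to WT4. CKO1 was far below the rest, and CKO4 reached the WT range (log2 change -0.34, adjusted p = 0.151). Lman1, the lectin, was at 9.18, 12.2, 12.8 and 12.4 RPKM across CKO1 to CKO4, against 9.45, 12.6, 12.2 and 10.2 RPKM across WT1 to WT4. The groups overlapped fully (adjusted p = 0.810).

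**Figure D3:**
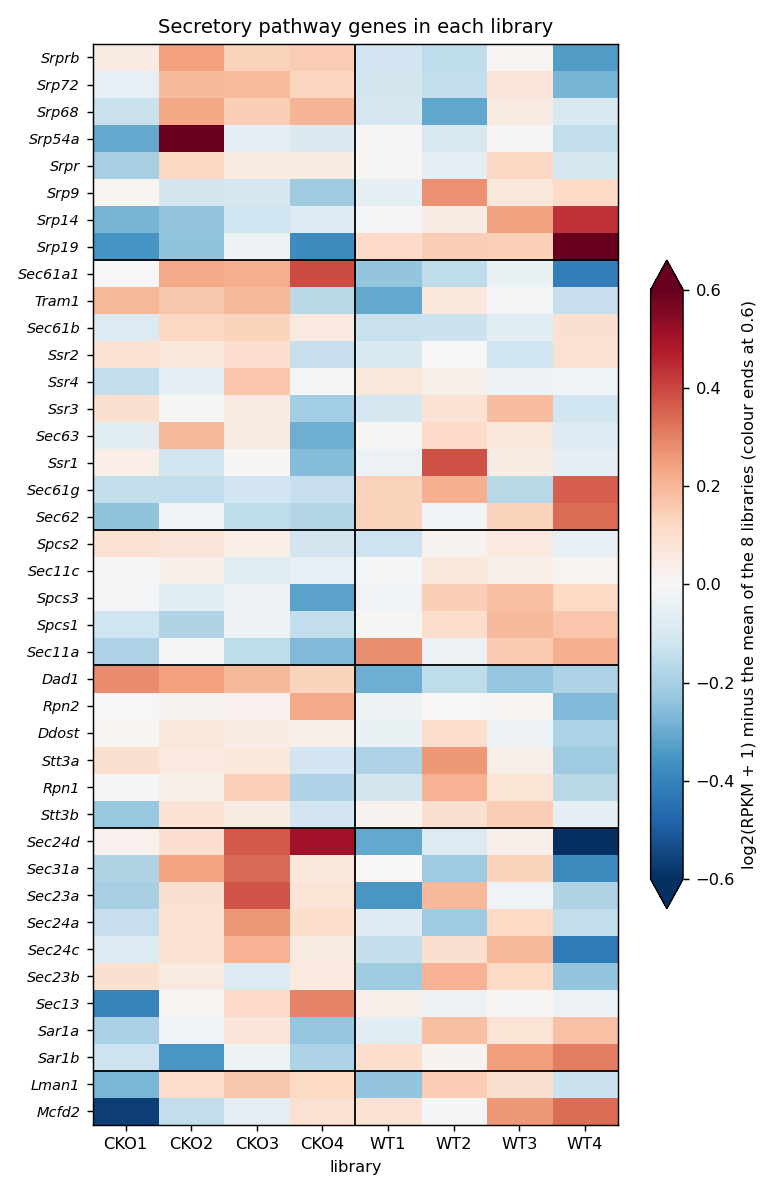
Log2(RPKM + 1) of the 40 genes (rows, by role) in the 8 libraries (columns) minus the gene's mean over the libraries, red above and blue below, with the colour ending at 0.6. Most rows hold no block of 1 colour per group; CKO1 is blue for Mcfd2 (58.8 RPKM) and Sec13 (12.1 RPKM), and WT4 is red for Srp19 (17.7 RPKM) and blue for Sec24d (2.21 RPKM).

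Over all roles, 3 members were higher in every CKO library than in any WT library (Dad1, Sec61a1 and Srprb) and 4 were lower in every one (Srp19, Srp14, Spcs1 and Sar1b). These 7 are 17.9% of the tested members, beside 18.7% of all tested genes, which split into 2.46% above and 16.2% below. Libraries within CKO differed: the median of the members against the WT mean was -0.06 in CKO1 and -0.08 in CKO4, the libraries with most acinar enzyme, and 0.09 in CKO2 and in CKO3. The part of enzyme share in the members' values was not tested beyond the rescaling given here. With totals that left out the digestive enzymes, Dad1, Sec61a1 and Srprb passed as higher (7.69% of members, beside 2.67% of all genes) and 0 members as lower (2.92% of all genes). Median centring gave 5 higher, those 3 with Sec24d and Srp72 (12.8%, beside 3.58% of all genes), and 0 lower (3.14% of all genes).

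Gene length moved with the sign of the change. The length behind the deposited values could be recovered for each member, from 552 bases for Sec61b to 9339 bases for Ssr1. The 4 members that were lower in every CKO library measured 790 to 1253 bases, and the 3 that were higher 2991 to 3735 bases. Of 5 equal groups of the tested genes by length, the shortest (206 to 1699 bases) had a median log2 change of -0.24, with 210 genes lower and 16 higher. In the longest group (5606 to 45465 bases) it was -0.02, with 31 lower and 22 higher. Among members, 9 of 12 in the shortest group were negative (median -0.22), while 18 of the 27 longer members were positive. Over all tested genes of any length 2522 changes were positive and 5991 negative. As a description, Spearman's rho of change on length was 0.45 across the 39 members and 0.30 across 8506 tested genes, which share the same 8 libraries. With each library's trend on length removed, a setting added after the data were seen, 7 members passed as higher (Dad1, Sec24d, Sec61a1, Sec61b, Srp72, Srprb and Ssr2) and 0 as lower. The 7 are 17.9% of the members, beside 4.09% of all genes higher and 2.82% lower in that setting. Srp19 then had a log2 change of -0.27 (adjusted p = 0.128) and Srp14 of -0.12 (adjusted p = 0.512). The sources used here do not state the RNA integrity of the samples.

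**Figure D4:**
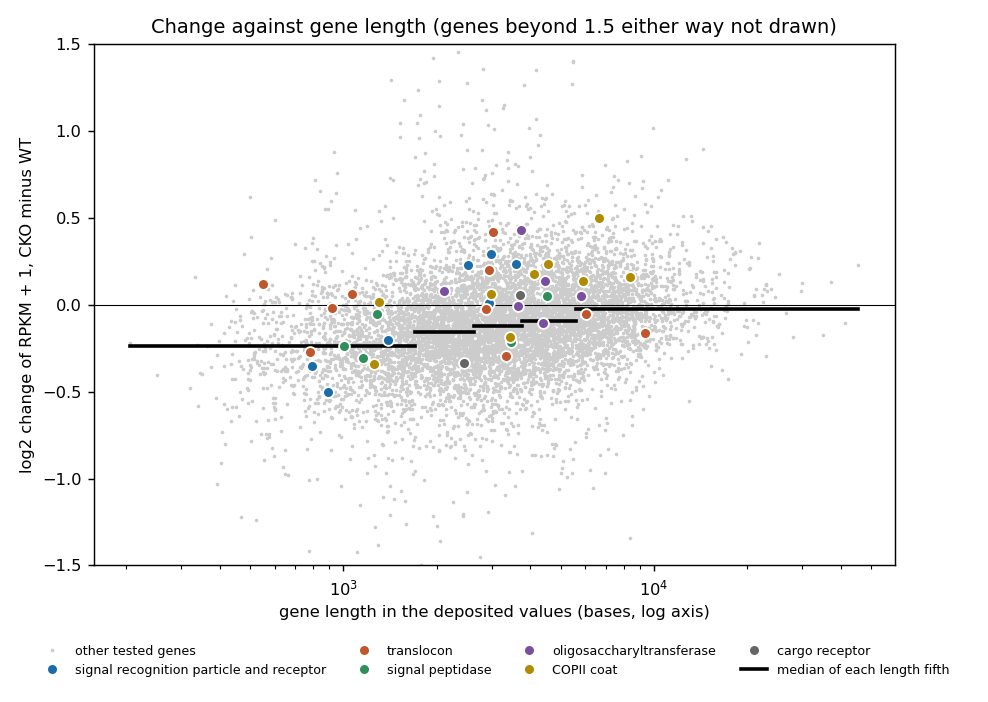
Log2 change of RPKM + 1 (CKO minus WT, vertical axis) against the gene length behind the deposited values (bases, log axis), with the 39 members coloured by role over all tested genes in grey. Black bars are medians of 5 equal groups by length and rise from -0.24 to -0.02; 9 of the 12 members in the shortest group lie below 0.

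Per-length levels of different genes rest on those lengths. For 25 members the length exceeds the longest coding sequence by over 1000 bases; for Dad1 it is 3735 bases, against 339 coding bases. Orders between genes therefore hold only for the authors' gene models.

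Of the other genes of the pathway, from lists set beside the members, 5 of 106 tested passed (4.72%), beside 7.17% of all tested genes. Of 23 tested genes for targeting and membrane insertion 1 fell and 0 rose (median log2 change -0.19). At an unadjusted p under 0.05 (limma) 1 was higher and 10 lower, beside 392 and 1931 of all 8513 tested genes. The gene that passed was Get1, a receptor for tail-anchored proteins, at 2.40 ± 0.777 RPKM in CKO and 4.39 ± 0.715 RPKM in WT (adjusted p = 0.0383). Tmem147, a translocon-associated protein, was at 34.2 ± 4.14 and 44.7 ± 3.05 RPKM (adjusted p = 0.0587).

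Of 27 further glycosylation genes 2 fell and 0 rose (median -0.08), both acting on the dolichol carrier of the glycan. Over all tested genes 5.74% fell and 1.42% rose. Unadjusted p (limma) was under 0.05 for 0 higher and 5 lower genes of this list, beside 392 and 1931 of all 8513 tested genes. Alg5, which makes dolichol-linked glucose, was at 3.58 ± 0.232 and 5.39 ± 0.370 RPKM (adjusted p = 0.0247). Nus1, a subunit of the enzyme that builds the dolichol chain, was at 6.49 ± 0.469 and 8.92 ± 0.723 RPKM (adjusted p = 0.0462).

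Of 27 other ER exit genes 1 fell and 0 rose (median -0.04), beside 5.74% and 1.42% of all tested genes. Unadjusted p (limma) was under 0.05 for 0 higher and 5 lower of them, beside 392 and 1931 of all 8513 tested genes. The gene that passed was Tmed9, a p24 family cargo adaptor, at 11.9 ± 1.26 and 17.6 ± 3.496 RPKM (adjusted p = 0.0432). Of 19 genes of the COPI coat and retrieval, which return proteins to the ER, 0 passed (median 0.05). At an unadjusted p under 0.05 (limma) 5 were higher and 1 lower, beside 392 and 1931 of all 8513 tested genes. The COPI subunits Copg1 (14.8 ± 1.65 and 11.02 ± 1.72 RPKM) and Cope (58.9 ± 4.82 and 47.6 ± 2.35 RPKM) had adjusted p of 0.0802 and 0.0878.

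Among 10 tested regulators of secretory genes 1 rose and 0 fell (median 0.19), beside 1.42% and 5.74% of all tested genes. Unadjusted p (limma) was under 0.05 for 3 higher and 0 lower genes, beside 392 and 1931 of all 8513 tested genes. Ern1, the ER stress sensor upstream of XBP1, rose 1.79-fold, from 10.6 ± 2.92 RPKM in WT to 18.9 ± 3.14 RPKM in CKO (adjusted p = 0.0251). The Ern1 groups overlapped, with CKO1 at 14.20 RPKM and WT3 at 14.25 RPKM. Calls of single genes in the further lists were not followed through the other settings. Atf6b, a paralog of the stress sensor ATF6, was at 5.51 ± 0.667 and 3.95 ± 0.519 RPKM (adjusted p = 0.0740). Bhlha15, a secretory cell transcription factor, was at 21.8 ± 6.91 and 13.7 ± 2.79 RPKM (adjusted p = 0.114).

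Markers of other cell types in the tissue were summed per library. Of 8 B and plasma cell markers in the table, 2 had a mean of at least 1 RPKM, and the list summed to 9.37 to 20.9 RPKM in CKO and 10.9 to 27.0 RPKM in WT. Of 8 islet markers all were above 1 RPKM, with a sum of 1306 to 2055 RPKM in CKO and 857 to 1649 RPKM in WT. Of 8 macrophage markers all were above 1 RPKM, with 174 to 358 RPKM in CKO and 320 to 618 RPKM in WT. The 8 duct markers, 6 of them above 1 RPKM, summed to 308 to 576 RPKM in CKO and 600 to 679 RPKM in WT. The 6 neutrophil markers, 5 of them above 1 RPKM, summed to 14.3 to 46.8 RPKM in CKO and 37.6 to 84.0 RPKM in WT. No marker in these lists was at 0 in all libraries. Their part in the members' values was not tested.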

How the data were processed

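RNA was extracted with TRIzol from pancreas of 8 samples and sequenced on a Novaseq6000, per the labels' protocols. The build was mm10, per the submitters' processing notes; aligner, counter, strand setting and annotation: not given in the sources used here. Values were deposited without a unit. They were read as RPKM made by the authors, because 16056 of 16068 genes above 0 in at least 2 libraries, all 40 members among them, gave whole reads within 0.01 reads at 1 gene length and the 8 library totals recovered from the values. The 12 others include no member. 1 unnamed column, which holds 8 unexplained numbers, was not used.

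Limma 3.58.1 (R 4.3.3) was fitted on log2(RPKM + 1) of all genes that reached 1 RPKM in 4 or more libraries, group being the only term, with a mean trend, robust variances and Benjamini-Hochberg adjustment over all 8513 genes (threshold 0.05). Fold changes on this scale understate those of low genes. Depth was 30469002 to 34359802 reads. Steps were tested on simulated data. Members, lists and tests were chosen with earlier results of these data known. All members are reported; values by library are given for those that passed and, per role, for the most abundant and the 2 with the smallest p, and up to 3 genes were named per further list. Alternatives were a pseudocount of 0.1, no filter, median centring, totals without digestive enzymes, no mean trend, a replicate block, limma-voom on the recovered reads, leaving out each library, and removal of a trend on gene length. Python 3.11.15, NumPy 2.4.6, pandas 2.3.3, SciPy 1.17.1 and Matplotlib 3.10.9 were used.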

Additional observations from a re-analysis of the deposited data

Results flagged for a closer look

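In 5 of 82 groups of 4 libraries (40 members and Anxa1, each in CKO and WT) 1 library lay far from the other 3, its gap to the nearest being too large a share of the group's range by Dixon's 95% limit. Chance alone gives about 1 in 20 groups. Srp19 was at 17.7 RPKM in WT4 against 12.4 to 12.7 RPKM in WT1 to WT3, and without WT4 its log2 change was -0.39 (adjusted p = 0.0984). CKO4 held 3 of these values: Ssr2 at 44.5 RPKM against 51.4 to 52.6 RPKM, Tram1 at 19.1 RPKM against 24.1 to 24.9 RPKM, and Rpn2 at 26.8 RPKM against 22.8 to 23.2 RPKM. Lman1 was at 9.18 RPKM in CKO1 against 12.2 to 12.8 RPKM in CKO2 to CKO4.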

How the results depend on the processing

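The count of 1 member higher and 1 lower was kept with a pseudocount of 0.1 and with no mean trend. With no filter, limma-voom or the replicate number as a block it was 1 higher and 0 lower. It was 5 and 0 with median centring, 3 and 0 with totals without digestive enzymes, and 7 and 0 with the length trend removed. The median log2 change of the members became 0.12, 0.14 and 0.16 in these last 3 settings, beside -0.02, -0.02 and -0.01 over all genes. Over the 8 omissions of 1 library the count ran from 0 to 2 higher and from 0 to 1 lower, and the median from -0.01 to 0.06. Of all called genes 19.8% were higher (121 of 610), but 53.3% with median centring (305 of 572), 47.8% with totals without digestive enzymes (227 of 475) and 59.2% with the length trend removed (348 of 588). Counts over all genes, 610 with every library, were 681 without CKO1 and 686 without CKO3, but 185 without WT1, 228 without CKO2, 245 without WT2, 254 without WT4, 267 without CKO4 and 297 without WT3.

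Anxa1 missed the threshold with no filter (log2 change -0.73, adjusted p = 0.0932), median centring (-0.63, 0.0899), totals without digestive enzymes (-0.62, 0.101), limma-voom (-0.83, 0.0595) and the length trend removed (-0.52, 0.134), and ran from -0.86 to -0.54 over the omissions (adjusted p of 0.0358 to 0.108), passing only without CKO4 or without WT3.

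The sign turned only for members that were not called. With median centring the log2 change was 0.048 for Sec63, 0.052 for Sec11c, 0.079 for Ssr3, 0.082 for Ssr4 and 0.10 for Rpn1. With totals without digestive enzymes it was 0.059 for Sec63, 0.10 for Ssr3 and Ssr4, 0.070 for Sec11c, 0.11 for Rpn1 and 0.013 for Stt3b. With the length trend removed it was 0.0020 for Srp9, 0.10 for Ssr3, 0.21 for Ssr4, 0.16 for Sec11c and 0.091 for Rpn1. Over the omissions the range crossed 0 for Lman1 (-0.010 to 0.16), Rpn1 (-0.065 to 0.061), Sec13 (-0.085 to 0.15), Sec23b (-0.0059 to 0.14), Sec63 (-0.13 to 0.034), Srpr (-0.028 to 0.081), Ssr3 (-0.069 to 0.040), Ssr4 (-0.081 to 0.025) and Stt3a (-0.011 to 0.15). The cause of these shifts was not tested.

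Deviations of same-numbered samples had correlations of -0.32 to 0.14 over the 4 numbers, and those of differently numbered samples -0.28 to 0.22. Whether equal numbers mark pairs cannot be told from these values. The replicate block left 548 genes called in place of 610, and gave adjusted p of 0.0488 for Dad1 and 0.0638 for Srp19. Intervals and counts cover the spread between these 8 libraries only, and Srp54a was under the level at which genes were tested.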
